A study of Mus musculus with 2 samples.

Results

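Genes for sensing and binding fatty acids were examined in the circumvallate papillae (CvP), the taste bud-bearing trench structures of the posterior mouse tongue, and in the tongue epithelium without papillae (Epi). The group was chosen by gene symbol: the fatty acid transporter and receptor gene *Cd36*, the free fatty acid receptor genes *Ffar1*, *Ffar2* and *Ffar3*, the omega-3 fatty acid receptor gene (known as *Gpr120* or *Ffar4*, and listed in the table as *O3far1*), and the fatty acid-binding protein genes *Fabp3*, *Fabp4* and *Fabp5*. Of these 8 genes, 6 had a row among the 18498 rows of the table. *Ffar1* and *Ffar3* had no row and were not analysed here. Both tissues came from male C57BL/6J mice of 12 to 30 weeks on normal chow, and the labels give no altered allele or treatment for either. Poly(A) RNA of at least 20 mice was pooled into 1 library per tissue, so the comparison has no replicate check and no p-value. Values are RPKM, a read density corrected for the length of the exon model and for sequencing depth. A higher RPKM in 1 tissue can come from more cells of a type or from more RNA per cell, and these cannot be told apart in pooled tissue.

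Dietary fat reaches taste buds as free fatty acids after lingual lipase, the product of *Lipf*, has cleaved triglycerides. CD36 binds long-chain fatty acids at the cell surface and is known from the apical side of taste bud cells, and FFAR4 (GPR120) is a G protein-coupled receptor for long-chain fatty acids, among them the omega-3 class. Both have been linked to fat taste through calcium signalling, in which phospholipase C beta 2 and the cation channel TRPM5 act. FFAR1 also binds long-chain fatty acids, FFAR2 and FFAR3 bind short-chain ones, and FABP proteins carry fatty acids inside cells.

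*O3far1* was the gene of the group that was at least 3-fold higher in the CvP, *Fabp3* and *Fabp4* were at least 3-fold higher in the Epi, and *Fabp5* was far above the rest in both tissues. Only *O3far1*, *Fabp3*, *Fabp4* and *Fabp5* reached an RPKM of 1 in either library, the minimum for a call, so 4 of the 6 rows could be called and *Cd36* and *Ffar2* could not. The call in the CvP, 1 of these 4, stands beside 16% of all 12549 rows past the same minimum. The call in the Epi, 2 of these 4, stands beside 1.96% of these rows. With so few members, these shares describe the group and are not a result about it. None of the 6 rows had a CvP RPKM above 10 together with a CvP/Epi ratio above 3, which 2.35% of all rows of the deposited table had. The CvP values were higher for most of the table: the median CvP/Epi ratio of the 10363 rows with an RPKM of at least 1 in both libraries was 1.31.

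**Figure D1:**
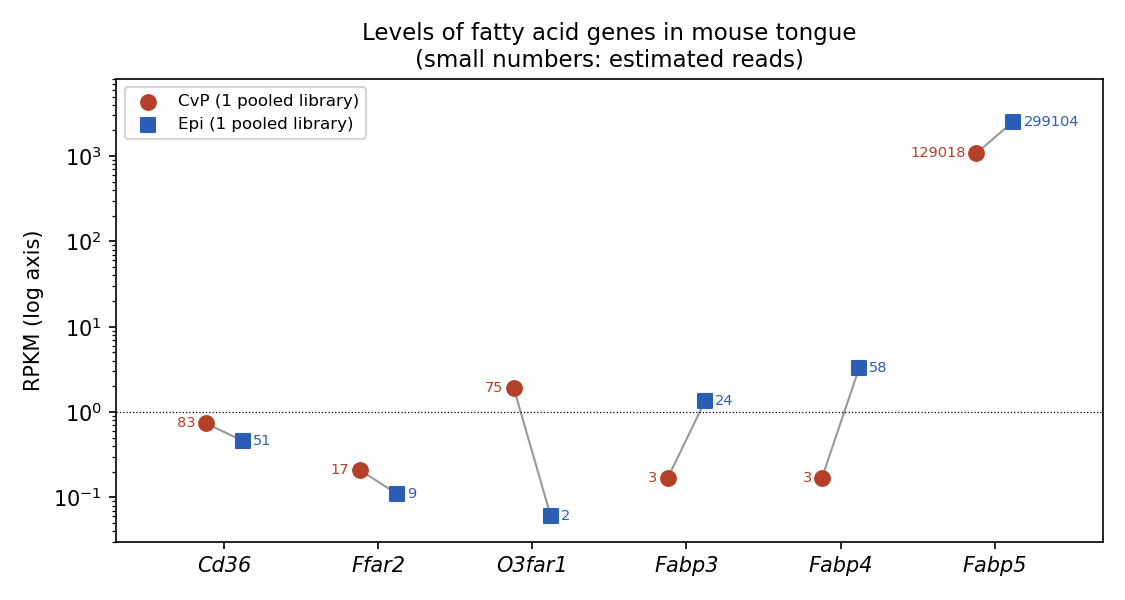
RPKM (log axis) of the 6 genes with a row in the library of CvP (circles) and that of Epi (squares), with the estimated reads as small numbers and a dotted line at an RPKM of 1. *Fabp5* lies at 1075 and 2533, while the other 5 genes lie between 0.06 and 3.24.

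The libraries held an estimated 28421050 mapped reads in CvP and 27960244 in Epi, judged by how much RPKM a single read adds in short rows. Depth and listed row length together gave the reads of each gene, and each ratio has a 95% exact (Clopper-Pearson) interval that covers counting error only. With 2 to 83 reads in a library, the genes other than *Fabp5* rest on few reads. The labels of the tissues were checked against marker genes. All 9 listed taste cell markers were at least 3-fold higher in the CvP, beside 16% of all rows past the minimum. Their summed RPKM was 399.95 in CvP against 5.82 in Epi. *Gnat3*, *Plcb2* and *Entpd2* led this list in the CvP at 127, 70.0 and 54.8, and *Entpd2*, *Tas1r3* and *Pkd1l3* in the Epi at 4.53, 0.70 and 0.40. In the list of stratified keratinocyte markers all 11 rows were found in both libraries, at 20.8 RPKM or more.

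*Cd36* is on chromosome 5 (minus strand, bases 17287508 to 17394777 of NCBI37/mm9). Its longest coding transcript in GENCODE M1 has 16 exons. The annotation holds 4 transcripts of the gene. Where the RefSeq start used here falls within the row, whose bases are of another build, was not examined, and it need not be the outer end. The 250 bases before this start are shown because *Cd36* is the fatty acid receptor most often discussed for taste. They lie at chr5:17835897-17836146 on the minus strand of GRCm38.p6, and capitals mark TGACCT, the reverse complement of the nuclear receptor hexamer AGGTCA, and CCAAT.
Cd36: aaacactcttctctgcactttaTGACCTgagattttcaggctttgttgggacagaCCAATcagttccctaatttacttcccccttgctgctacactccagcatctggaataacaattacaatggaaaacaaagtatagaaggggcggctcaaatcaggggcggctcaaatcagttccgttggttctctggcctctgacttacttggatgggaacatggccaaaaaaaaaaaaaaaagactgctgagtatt

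The RPKM of *Cd36* was 0.74 in CvP against 0.46 in Epi, about 83 and 51 reads. Both values were low, and *Cd36* was number 12863 of the rows by CvP RPKM and number 11775 by Epi RPKM. The CvP/Epi ratio was 1.61 with an interval from 1.12 to 2.32, so the value in the CvP library was higher by more than counting error. Divided by the median ratio of all genes the ratio was 1.23, with an interval from 0.850 to 1.76 that includes 1, so *Cd36* was not detectably apart from most genes at this depth. *Plcb2*, the taste phospholipase that acts downstream of CD36, had a CvP RPKM of 70.0, which is 94.6-fold that of *Cd36*.

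*Cd36* is also known from macrophages, adipocytes and capillary endothelium, so markers of these cells are given beside it. Of 10 macrophage markers, 8 passed the minimum. Of these, 7 were at least 3-fold higher in the CvP, beside 16% of all rows past the minimum. The list had a summed RPKM of 184.66 in CvP against 8.28 in Epi. *Lyz2*, *Cd14* and *Cd68* led this list in the CvP at 132, 20.4 and 10.8. In the Epi the highest were *Cd68* at 4.45, *Cd14* at 0.94 and *Csf1r* at 0.67. The part of these cells in the *Cd36* values was not tested. Endothelial markers were near 0 in both libraries except *Tek*, at 2.49 in CvP against 0.07 in Epi. The 9 others, led by *Pecam1* and *Egfl7* in the CvP and by *Egfl7*, *Tie1* and *Pecam1* in the Epi, reached 0.28 at most in the CvP and 0.24 at most in the Epi. Adipocyte markers apart from *Lpl* and *Pparg*, which other cells also express, summed to 0.05 in CvP against 0.62 in Epi over 8 genes. *Adipoq*, *Plin1*, *Cidec*, *Cfd*, *Retn* and *Car3* were at 0 in the CvP, where *Lep* (0.04) was the highest of the 8, and *Car3* (0.24) was the highest in the Epi. *Pparg* had 3.14 and 4.02, and *Lpl* 1.08 and 0.77.

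The other members of the CD36 family were measured at higher levels than *Cd36*. *Scarb1*, the gene of the HDL receptor SR-BI, stood at 5.34 RPKM in CvP against 0.89 in Epi, a ratio of 6.00 (95% interval 4.95 to 7.27). *Scarb2*, which encodes the lysosomal membrane protein LIMP-2, had 37.7 in CvP against 18.8 in Epi, a ratio of 2.01 (1.93 to 2.09). All 3 genes of the family were higher in the CvP library, and of the 2 that passed the minimum only *Scarb1* exceeded 3-fold. Of all 12549 rows past the minimum, 9805 were higher in the CvP by any amount and 16% were called there, so the shared direction is that of most rows.

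*O3far1* (*Ffar4*) lies on the plus strand of chromosome 19, from 38171569 to 38188753 on NCBI37/mm9, with 3 exons. The table itself annotates it with taste receptor activity, a term that 16 rows carry and no other member of the group does. The 250 bases before its RefSeq start, at chr19:38096829-38097078 on the plus strand of GRCm38.p6, are shown because it was the member called in the CvP. They hold none of the searched motifs and so no capitals.
O3far1: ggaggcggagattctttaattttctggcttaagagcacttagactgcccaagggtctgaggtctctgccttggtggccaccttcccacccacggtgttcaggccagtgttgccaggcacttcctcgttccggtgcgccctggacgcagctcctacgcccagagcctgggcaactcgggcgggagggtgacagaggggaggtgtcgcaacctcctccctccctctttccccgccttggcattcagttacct

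*O3far1* stood at 1.90 RPKM in CvP against 0.06 in Epi, about 75 and 2 reads. The ratio of 31.7 had a wide interval, from 9.86 to 310, because of the few Epi reads. The lower limit was above 3, and the interval did not overlap that of *Cd36*. Divided by the median ratio of all genes it was 24.1. In the CvP library *O3far1* was number 11056 of all rows and its RPKM was 2.57-fold that of *Cd36*. It was low beside genes of the taste cascade: *Trpm5* was 19.9-fold and *Gnat3*, the gene of the taste G protein gustducin, 66.9-fold above *O3far1* in the CvP. The taste markers and the macrophage markers, whose sums are given above, were both higher in the CvP library like *O3far1*, which is also known from macrophages, and their part in its ratio was not tested. By the distance of log2 RPKM over the 2 libraries, with 0.1 added, the rows nearest to *O3far1* were *Il10* (1.86 in CvP against 0.06 in Epi), *Camk2b* (1.95 and 0.06) and *Dtx4* (1.80 and 0.06).

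*Ffar2*, a receptor for short-chain fatty acids such as acetate, is on chromosome 7 (minus strand, bases 31603376 to 31608794). *Ffar3* and *Ffar1*, the members without a row, lie beside it in the annotation, and the 3 genes span 43114 bases. The RPKM of *Ffar2* was 0.21 in CvP against 0.11 in Epi, about 17 and 9 reads. Counting error alone put its ratio of 1.91 between 0.783 and 4.73, so a difference was not detectable at this depth. Of the 75-base windows of its transcript, 0.451% had a copy elsewhere. RefSeq gives *Ffar2* 4 start sites, and the 250 bases before 3 of them hold TGACCT. The stretches at chr7:30821193-30821442 and chr7:30821140-30821389 of GRCm38.p6 overlap and share the same copy. Counting both strands, 14.02% of all RefSeq promoters held this hexamer.

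Other receptors for fatty acids and related metabolites were mostly as low. *Niacr1*, the gene of the niacin and hydroxybutyrate receptor, was the exception and stood at 33.0 in CvP against 48.4 in Epi, a ratio of 0.681 (95% interval 0.641 to 0.723). Its CvP RPKM was 17.4-fold that of *O3far1*. *Gpr31c* had 0.60 in CvP against 0.10 in Epi, about 50 and 8 reads, with a ratio of 6.00 (lower limit of the interval 2.89), but it did not reach the minimum for a call. *Gpr84*, the gene of a receptor for medium-chain fatty acids, had about 6 reads in CvP against 0 in Epi. Against a floor of 3 reads it was 2.02-fold higher in the CvP, and the lower limit of its exact interval was 1.16. *Gpr81*, the lactate receptor gene, had about 6 and 4 reads, and its interval of 0.350 to 7.11 includes 1. Thus 1 of these 4 further rows passed the minimum and it did not pass 3-fold.

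**Figure D2:**
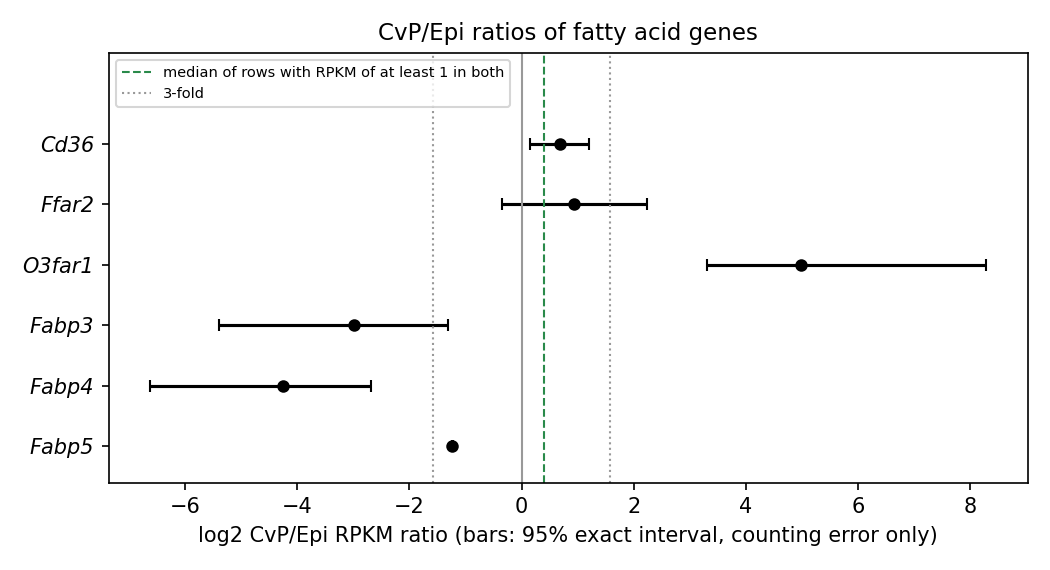
CvP/Epi RPKM ratio of each of the 6 genes on a log2 scale, with its 95% exact interval for counting error. The dashed line is the median of rows with an RPKM of at least 1 in both libraries (1.31) and the dotted lines are 3-fold. *O3far1* lies beyond the right line with its whole interval, *Fabp4* beyond the left one, and the interval of *Ffar2* spans 1.

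The FABP genes went the other way. All 3 were higher in the Epi library, where 21.8% of rows past the minimum were higher in the Epi by any amount. *Fabp4*, the adipocyte-type gene, and *Fabp5*, the epidermal-type gene, lie in a cluster on chromosome 3, with 187732 bases between their rows, while *Fabp3*, the muscle and heart type, lies on chromosome 4.

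*Fabp5* lies on the plus strand of chromosome 3 from 10012606 to 10016610. It stood at 1075 RPKM in CvP against 2533 in Epi, which made it number 23 of all rows in the CvP and number 17 in the Epi. Its CvP RPKM was 566-fold that of *O3far1*. The CvP/Epi ratio of 0.424 (95% interval 0.422 to 0.427) corresponds to a 2.36-fold higher value in the Epi, and 3.76% of rows past the minimum were at least 2-fold higher in the Epi. Divided by the median ratio of all genes the ratio was 0.323, which is past 3-fold. The exons of the 3 *Fabp5* transcripts in GENCODE M1 together cover 3567 bases. The listed length of 4.224 kb is longer than these, the 4.005 kb that the row spans and the longest coding transcript of 0.987 kb. If all reads came from that transcript and the listed length was the divisor, the levels per kilobase would be 4.28-fold higher, at 4599 in CvP against 10838 in Epi, with the same ratio. Of the 75-base windows of that transcript, 61.6% had a copy elsewhere in the genome with 2 or fewer mismatches, at 6 places, so the counting of such reads could move the level.

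Keratinocyte markers were high in both libraries and 7 of 11 were higher in the Epi, 3 of them (*Krt10*, *Krt14* and *Lor*) at least 3-fold. Over all rows past the minimum these shares were 21.8% and 1.96%. *Krt13*, *Krt4* and *Krt6a* led the list in both, at 17549, 11801 and 3949 in the CvP and 47815, 22406 and 7499 in the Epi, with ratios of 0.367, 0.527 and 0.527 beside the 0.424 of *Fabp5*. *Krt5*, *Ivl*, *Dsg3* and *Trp63* were higher in the CvP, with ratios from 1.15 to 2.36. The part of the keratinocyte layers sampled in the *Fabp5* ratio was not tested. The rows nearest to *Fabp5* were *Defb4* (991 in CvP against 2469 in Epi), *Crct1* (1032 and 2112) and *Mt4* (1142 and 3104).

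*Fabp4* is on chromosome 3 as well (minus strand, bases 10204343 to 10208576). It stood at 0.17 RPKM in CvP against 3.24 in Epi, about 3 and 58 reads. The ratio was 0.0525 with an interval from 0.0102 to 0.156, that is 19.1-fold higher in the Epi with a lower limit of 6.40. No window of its transcript had a copy elsewhere. The rows nearest to *Fabp4* were *Prlr* (0.17 and 3.39), *Gm5868* (0.13 and 3.40) and *Cox6a2* (0.21 and 2.72).

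*Fabp3* lies on the plus strand of chromosome 4 from 129986022 to 129992707. The 250 bases before its RefSeq start, at chr4:130308488-130308737 on the plus strand of GRCm38.p6, are shown because it is the called FABP gene with an entry in the promoter table. They too held none of the searched motifs.
Fabp3: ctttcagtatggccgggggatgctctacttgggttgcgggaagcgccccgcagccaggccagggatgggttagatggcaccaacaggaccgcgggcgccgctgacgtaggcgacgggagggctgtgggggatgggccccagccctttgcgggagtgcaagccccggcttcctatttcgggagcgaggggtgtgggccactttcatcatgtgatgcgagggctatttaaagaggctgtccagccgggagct

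The RPKM of *Fabp3* was 0.17 in CvP against 1.34 in Epi, about 3 and 24 reads. The ratio was 0.127 with an interval from 0.0237 to 0.405, that is 7.88-fold higher in the Epi with a lower limit of 2.47, which is below 3. The intervals of *Fabp3* and *Fabp4* overlap, so their ratios were not distinguishable at this depth. The value of *Fabp3* is also uncertain by sequence: 88.8% of the 75-base windows of its transcript had a copy at 2 other places in the genome, and 81 exon bases within its row lie opposite exons of *Gm10570* or *Zcchc17* on the minus strand, where reads counted without strand cannot be told apart. The rows nearest to *Fabp3* were *Gzmn* (0.18 and 1.35), *Pvalb* (0.20 and 1.61) and *Apeg3* (0.20 and 1.08).

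Skeletal muscle markers moved the same way as *Fabp3* and *Fabp4*. Of 10 muscle genes 8 passed the minimum. All 8 were at least 3-fold higher in the Epi, beside 1.96% of all rows past the minimum, with ratios from 0.0461 to 0.229. The muscle list summed to 7.78 RPKM in CvP against 68.8 in Epi. *Tnni2*, *Mylpf* and *Acta1* led in the CvP at 2.53, 1.63 and 0.86, and *Acta1*, *Tnni2* and *Ckm* in the Epi at 12.9, 12.3 and 10.6. All 8 ratios, among them those of *Ckm* (0.0634) and *Mb* (0.104), the gene of myoglobin, lie within the wide interval of *Fabp3*. With about 3 CvP reads of *Fabp3* behind that interval, lying within it tells little. The ratios of *Tnni2* (0.206) and *Mylpf* (0.229) lie above the interval of *Fabp4*, 0.0102 to 0.156. Adipocyte markers apart from *Lpl* and *Pparg* were low in the Epi as well, with *Adipoq* at 0.03, *Plin1* at 0.02 and *Plin4* at 0.18. *Plin4* had about 2 reads in CvP against 29 in Epi, and *Car3* 0 against 10. *Lep* went the other way, with about 4 against 0. Of the 5 salivary gland markers past the minimum, 4 were at least 3-fold higher in the Epi, beside 1.96% of all rows past the minimum. *Aqp5* went the other way, at 6.09 in CvP against 0.69 in Epi, a ratio of 8.83 (6.01 to 13.3). The gland list summed to 409.86 RPKM in the Epi, of which *Lipf* held 313, against 10.45 in the CvP. *Aqp5*, *Lipf* and *Muc5b* led that list in the CvP at 6.09, 1.96 and 1.38, and *Lipf*, *Amy1* and *Dcpp1* in the Epi at 313, 80.5 and 7.84. The part of muscle, adipocyte or gland RNA in the 2 FABP ratios was not tested.

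**Figure D3:**
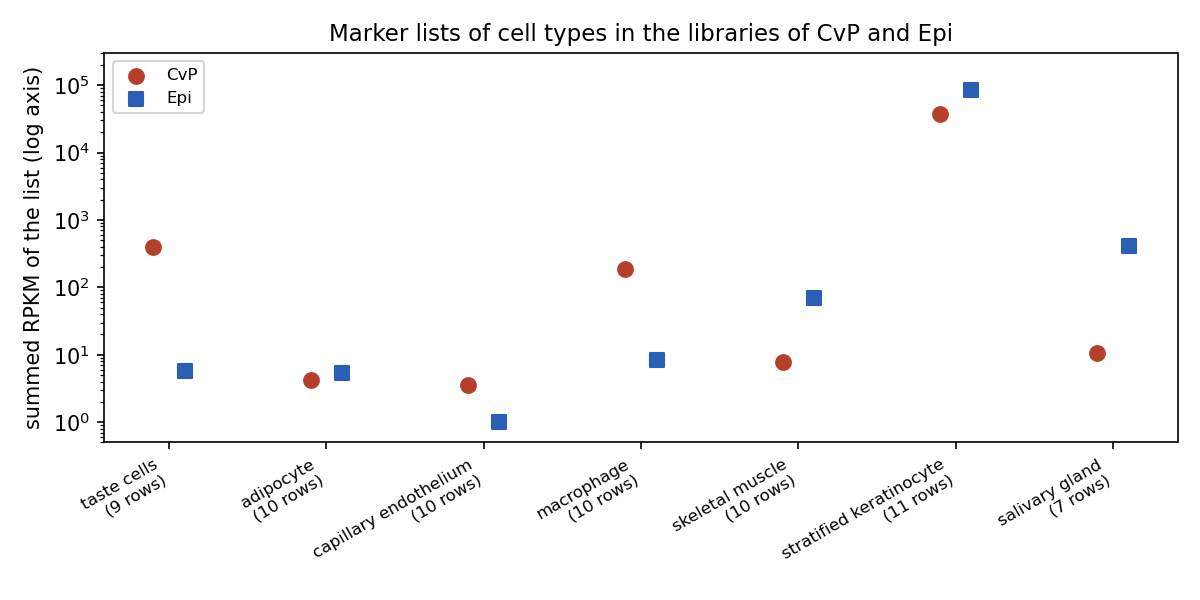
Summed RPKM (log axis) of 7 lists of cell type markers in CvP (circles) and Epi (squares), with the number of rows per list. Taste and macrophage lists sum higher in the CvP (399.95 against 5.82 and 184.66 against 8.28), and the muscle, keratinocyte and salivary gland lists sum higher in the Epi.

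Among the other lipid-binding proteins of the FABP family, which also carry retinoids, the direction was mostly that of *Fabp5*. Of 10 further rows 6 passed the minimum. Beside shares of 21.8% and 1.96% over all rows past the minimum, 5 of these 6 were higher in the Epi and none by 3-fold. These were *Crabp2* (116 in CvP against 125 in Epi), *Rbp2* (134 and 164), *Rbp7* (9.97 and 17.2), *Crabp1* (7.28 and 13.8) and *Fabp6* (7.65 in the CvP, a ratio of 0.765), and the interval of *Fabp6*, 0.568 to 1.03, includes 1. *Fabp12*, *Fabp2*, *Fabp7* and *Pmp2* stayed below an RPKM of 1. *Fabp2*, the intestinal gene, had 0.44 and 0.62. *Fabp7*, the brain gene, had about 7 reads against 0, or 2.27-fold higher in the CvP against the floor (lower limit of the interval 1.42). *Fabp12* and *Pmp2*, the neighbours of *Fabp4* on chromosome 3, had about 8 and 0 reads in the CvP and 19 and 3 in the Epi. The median log2 ratio of the 9 rows of the family past the minimum, *Fabp3*, *Fabp4* and *Fabp5* included, was -0.78 on the RPKM + 0.1 scale, beside 0.50 over all rows past the minimum.

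Uptake and activation of fatty acids rest on the SLC27 transporters and on the acyl-CoA synthetases, of which 11 of 14 rows passed the minimum. Of these 11, 2 were at least 3-fold higher in CvP against 0 in Epi, beside 16% and 1.96% of all rows past the minimum. *Acsl4*, a synthetase that prefers arachidonic acid, had 8.82 in CvP against 0.99 in Epi, a ratio of 8.91 (7.51 to 10.7). *Slc27a2*, the gene of the transporter and very long-chain synthetase FATP2, had 5.93 and 0.02, about 388 reads and 1 read, and its interval ran from 68.1 to 15115. The highest means of both libraries were those of *Dbi*, the acyl-CoA-binding protein gene, at 134 and 261, *Acsbg1* at 46.9 and 80.2, and *Acsl1* at 58.4 and 61.4. The epithelial transporter gene *Slc27a4* was also higher in the Epi, at 33.2 and 50.3. The median log2 ratio of the list, 0.46, was close to that of all rows.

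Of the lipase genes, 8 of 9 passed the minimum, with 1 call in each direction. Over all rows past the minimum, 16% were called in the CvP and 1.96% in the Epi. *Lipf*, whose enzyme supplies free fatty acids in the mouth, was at 1.96 in CvP against 313 in Epi, a ratio of 0.00625 (0.00489 to 0.00781). It is also among the salivary gland markers above, and the part of gland RNA in its ratio was not tested. *Lipc*, the hepatic lipase gene, was at 8.74 and 0.02, about 477 reads and 1 read, and the limits of its ratio were 83.8 and 18573. *Abhd5* (24.5 and 34.6) and *Pnpla2* (14.5 and 12.4), which act together in triglyceride breakdown inside cells, differed by less than 1.5-fold.

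Lipid-sensing nuclear receptors and their partners had 6 of 9 rows past the minimum. None of these 6 passed 3-fold in the CvP or in the Epi, beside 16% and 1.96% of all rows past the minimum. Their ratios lay between 0.781 for *Pparg* and 1.09 for *Rxrb*, and the median log2 ratio was close to 0 beside the 0.50 of all rows. *Rxra* (25.6 and 26.7), *Nr1h2* (23.5 and 22.6) and *Ppard* (22.1 and 22.5) had the highest means of both libraries. *Cd36*, *Fabp3*, *Fabp4* and *Fabp5* are annotated in the table to the PPAR signaling pathway, and the hexamer AGGTCA, to which these receptors bind in pairs, was found on either strand in 14.02% of the 32851 RefSeq promoters of 250 bases. Its copy before *Cd36* starts 228 bases ahead of the RefSeq start site used. CCAAT occurred in 33.85% of the promoters, TATAA in 22.78% and the octamer core ATGCAAA in 4.125%, counting both strands. Of the 8 genes, 6 had an entry in the promoter table, and *Fabp4* and *Fabp5* had none.

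Most fatty acid oxidation genes differed little between the libraries. Of 15 rows 14 passed the minimum, and 1 was at least 3-fold higher in the CvP: *Cpt1c*, a carnitine palmitoyltransferase gene known from neurons, at 2.89 and 0.43, a ratio of 6.72 (4.82 to 9.40). *Ech1* (52.9 and 59.7), *Acadl* (53.8 and 41.5) and *Hadha* (45.4 and 48.9) had the highest means of both libraries. The median log2 ratio of the list was 0.18, beside 0.50 over all rows past the minimum, of which 16% were called in the CvP.

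The signalling genes linked to CD36 and FFAR4 in taste cells were split. Of 13 rows 12 passed the minimum. At least 3-fold higher were 6 in CvP against 0 in Epi, beside 16% and 1.96% of all rows past the minimum. Of the 6, *Gnat3*, *Plcb2* and *Trpm5* are also taste cell markers used above to check the labels, so their calls are not a separate result. *Gnat3* (127 in CvP against 0.03 in Epi), *Plcb2* (70.0 and 0.12) and *Trpm5* (37.8 and 0.01) had ratios with lower limits of 2134, 431 and 1017. *Gng13*, a G protein gamma subunit gene, was at 77.4 and at 0 reads in the Epi. Against a floor of 3 reads *Gng13* was 652-fold higher in the CvP, with a lower limit of 530. *Lyn*, an Src family kinase gene, was at 5.45 and 0.71, a ratio of 7.68 (5.93 to 9.95), and *Slc8a1*, a sodium-calcium exchanger gene, at 1.37 and 0.33, a ratio of 4.15 (3.50 to 4.92). The store-operated calcium entry genes *Stim1* (21.7 and 23.4) and *Orai1* (7.46 and 7.45) and the kinase gene *Fyn* (6.17 and 8.32) differed by less than 1.5-fold. *Itpr3*, the inositol trisphosphate receptor gene of taste cells, was at 30.1 and 21.9. The median log2 ratio of the 12 genes, the taste cell markers included, was 1.57, or 1.71 with genes at 0 set to the floor.

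**Figure D4:**
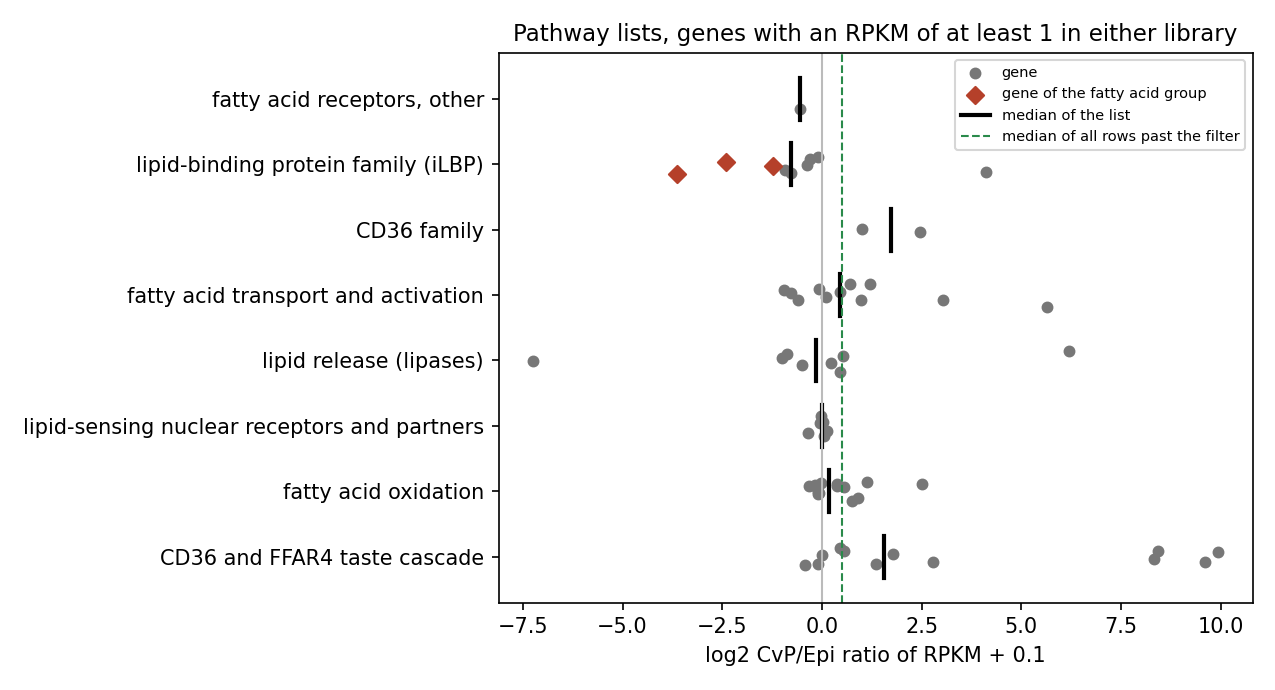
log2 CvP/Epi ratio of RPKM + 0.1 for the genes of 8 pathway lists with 1 RPKM or more in at least 1 library. Each point is a gene, diamonds are *Fabp3*, *Fabp4* and *Fabp5*, thick bars are list medians and the dashed line is the median of all rows past the minimum (0.50). The taste cascade reaches far to the right, *Lipf* lies farthest to the left, and the nuclear receptors lie close to 0.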

How the data were processed

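RNA of CvP and Epi, 1 pooled library each, was sequenced from poly(A) RNA (TruSeq, single-end reads of 75 bp). The authors mapped reads with Bowtie 0.12.7 to NCBI37/mm9 and deposited RPKM values from ERANGE, whose options, including the treatment of multiply matching reads, are not given in the sources used here. The authors' ratio column was not used. The deposited table also lists a length per row, given in kb by the authors, which is another measure than RPKM. Depth was taken from RPKM steps in rows of 0.1 kb. In short rows listed as clearly longer than annotated, 88% of 25 low CvP values were whole reads (tolerance 0.15) with the listed length against 45.5% of 22 with the annotated one, and 69.2% of 13 against 53.3% of 15 in Epi, so the listed length was used. A call was 1 RPKM or more in at least 1 library and a 3-fold ratio, and medians used a pseudocount of 0.1, which understates changes of low genes. Reads at 0 were set to a floor of 3.

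The members and lists were chosen with earlier results of these data known. Genes named were the members, all receptors and lipid-binding proteins listed, the called and the 3 most abundant genes of each other pathway list, the 3 highest of each marker list per library, and the 3 rows nearest each member past the minimum. *Slc27a4*, *Stim1*, *Orai1*, *Fyn*, *Itpr3*, *Rxrb*, *Pparg*, and marker genes outside this rule were named after their values were seen. Single results of the lipid-binding protein list and of the PPAR pathway are not reported here. Copies were sought with blastn in the NCBI37/mm9 genome; annotation was GENCODE M1, and promoter sequences are from RefSeq (GRCm38.p6). Depth recovery, intervals and calls were tested on simulated data. Python 3.11.15, numpy 2.4.6, pandas 2.3.3, scipy 1.17.1 and matplotlib 3.10.9 were used.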

Additional observations from a re-analysis of the deposited data

How the results depend on the processing

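No paired analysis was possible because CvP and Epi are single libraries, and for the same reason no replicate could be left out. The direction of each of the 6 member ratios stayed the same under every scaling and pseudocount tried. With a pseudocount of 1 the ratio was 2.74 for *O3far1*, 0.50 for *Fabp3* and 0.276 for *Fabp4*, which follows from their low RPKM, and the calls were then 0 in CvP against 1 in Epi. With a minimum RPKM of 10 there were 0 calls on either side, since only *Fabp5* reaches it. The ratio of *Fabp5* was 0.323 divided by the median ratio, 0.322 divided by the trimmed mean ratio and 0.512 with RPKM rescaled to equal sums, beyond its narrow counting interval, and the first of these gave 3 calls in the Epi, as did a fold of 2. The length behind the reads changed the intervals and no ratio. A pseudocount of 1 moved the medians of the taste, endothelial, macrophage, muscle and gland lists toward 0, and the median of the receptor list went from -0.55 to 0.56 without the minimum, where it holds 5 rows in place of 1. Depth limits *Ffar2*, *Cd36* against the median, and the low side of *O3far1*, *Fabp3* and *Fabp4*, at 2 or 3 reads.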

Other observations

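The table assigns 68 rows to the PPAR signaling pathway, a set looked at after the other values were seen. Of these, 41 had 1 RPKM or more in at least 1 library. At least 3-fold higher in the CvP were 4 of them: *Slc27a2*, *Acsl4*, *Cpt1c* and *Ehhadh*, the last a peroxisomal fatty acid oxidation gene at 2.82 in CvP against 0.79 in Epi. At least 3-fold higher in the Epi were 2, *Fabp4* and *Fabp3*. Among all 12549 rows past the same minimum, such calls made up 16% (CvP) and 1.96% (Epi). The 2 Epi calls repeat those of the group and are not a separate result. Of the CvP calls, only that of *Ehhadh* was not given above. With ratios divided by the median ratio of all genes the counts were 3 in CvP against 4 in Epi. *Ehhadh* was then at 2.72, and *Fabp5* (0.323) was among those past 3-fold. This division lowers every ratio, and the share of all rows called under it is not given here. The median log2 ratio of the 41 rows, on the RPKM + 0.1 scale, was 0.12, beside 0.50 over all rows past the same minimum.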
